A study of Mus musculus with 10 samples.

Results

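Of 211107 merged regions of accessible chromatin, 19225 were called in cells treated with cisplatin (Cispl) and in none of the 4 other conditions. These regions were chosen by that pattern of calls alone. The distinct intervals of 5 peak lists were merged where they overlapped by at least 1 bp, and a merged region was kept when the Cispl list held it and no other list did. The kept regions, called members below, made up 9.11% of all merged regions and 11.8% of the 163323 in the Cispl list (95% Wilson interval, 11.6 to 11.9). Their number was 11730 with no other list within 500 bp and 10649 with a q of at most 1e-05. The same rule on the 100000 strongest intervals of each list gave 4889 regions, of which only 992 were among the 19225.

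The cells were Myc-CaP, a mouse prostate cancer line of FVB/NJ origin labelled male. All were collected at 48 h. Cispl cells had received cisplatin at 2 µM. The 4 other groups were left without drug (Ctrl), given oxaliplatin at 2 µM (Oxali), given interferon-γ labelled 1000 pg (IFNγ), or given both of the latter (Oxali + IFNγ). The amount of interferon-γ is per ml, as the methods of the study give it. Each group had 2 ATAC-seq libraries, which the authors pooled before calling peaks, so that each group has 1 list and no spread between replicates can be given. With only these pooled lists used here, no difference between groups was tested, and every interval below covers counting error only.

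ATAC-seq reads come from DNA that a transposase can reach, mostly promoters, enhancers and other stretches free of nucleosomes. Cisplatin is a platinum drug that crosslinks neighbouring bases, above all guanines. Such crosslinks block polymerases and are removed by nucleotide excision repair and, when they join the strands, by the Fanconi anaemia pathway. Oxaliplatin forms related crosslinks with a bulkier carrier ligand.

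Many of the strongest regions called only with cisplatin lay inside genes. The sequences of 4 are shown because each stood over the genome-wide background of 13.8, with the nearest region of another list 4846 to 37441 bp away. Each is the 121 bases around the summit on the forward strand of GRCm38 (mm10). Capitals mark matches to any of 16 motifs searched.
Dnm2, chr9:21484009-21484129: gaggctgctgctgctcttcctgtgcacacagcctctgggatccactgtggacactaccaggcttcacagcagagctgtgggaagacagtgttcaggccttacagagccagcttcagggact
Vps13d, chr4:145136033-145136153: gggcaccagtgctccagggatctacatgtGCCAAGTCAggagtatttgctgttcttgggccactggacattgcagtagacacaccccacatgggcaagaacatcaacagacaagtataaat
Etv6, chr6:134173515-134173635: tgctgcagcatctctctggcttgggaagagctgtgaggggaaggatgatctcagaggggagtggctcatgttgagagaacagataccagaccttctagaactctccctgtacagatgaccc
Tbc1d32, chr10:56164541-56164661: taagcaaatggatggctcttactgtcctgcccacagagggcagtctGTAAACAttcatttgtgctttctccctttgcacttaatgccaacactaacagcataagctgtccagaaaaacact

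The capitals in Vps13d mark a match to the NRF2 consensus and those in Tbc1d32 a match to the forkhead consensus. The windows of Dnm2 and Etv6 held no match within these bases. None of the 4 windows held the AP-1 consensus.

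The pileup of a region is the number of extended reads over its summit, and the background is the number MACS2, the peak caller, placed there by chance. Both were solved from the deposited fold and p of each peak. The region in Dnm2, which encodes the membrane-cutting GTPase dynamin 2, ran over chr9:21483582-21484556 in an intron and had a pileup of 137 and a background of 13.8 (fold 9.35, −log10 q 83.4). The nearest region of another list lay 5491 bp away. At the depth of the Ctrl list that pileup would be 121, whereas a pileup of 21 over the genome background is enough for a call there.

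An intron of Etv6, an ETS-family repressor, held a region at chr6:134173435-134173889 with a pileup of 130 over 13.8. It lay 24103 bp from any region of another list. Vps13d, a lipid transfer protein, had a region at chr4:145135926-145136466 with the same pileup of 130 over 13.8. The region in Tbc1d32, a gene of ciliary signalling, lay at chr10:56164458-56164803 with a pileup of 126 and stood 37441 bp from another list. All 4 genes had a single such region among the strongest, and all 4 regions were intronic.

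Fndc3b, a protein of the secretory membrane, held a member in an intron at chr3:27553469-27554187, where the pileup was 218 and the background 40.9. All 5 lists held a neighbouring region, the nearest end 1716 bp away, whose pileup was 520 with cisplatin, 572 in Ctrl, 542 with Oxali, 540 with IFNγ and 692 with Oxali + IFNγ. As a multiple of the genome background of each list, which moves with depth, the neighbour stood at 37.8 with cisplatin, 47.1 in Ctrl, 48.1 with Oxali, 56.1 with IFNγ and 53.6 with Oxali + IFNγ. It was thus lowest with cisplatin on that scale. In Suclg2, a subunit of succinyl-CoA ligase, the member at chr6:95594284-95594605 had a pileup of 191 over 28.3. There the next Cispl interval reached a pileup of 348, against 43 in Ctrl, 58 in Oxali and 51 in Oxali + IFNγ and no interval in IFNγ, so this member bordered a site that was itself higher with cisplatin.

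Further members among the strongest were in Tbc1d22a (pileup 131 over 14.3), Nup93 (139 over 16.7), Taf2 (130 over 15.3) and Patj (122 over 13.8). Nup93 encodes a scaffold protein of the nuclear pore, Taf2 a subunit of the general transcription factor TFIID and Patj a polarity protein of tight junctions. The regions in Nup93 and Taf2 overlapped exons and were among the widest, at 1070 bp and 1222 bp.

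**Figure D1:**
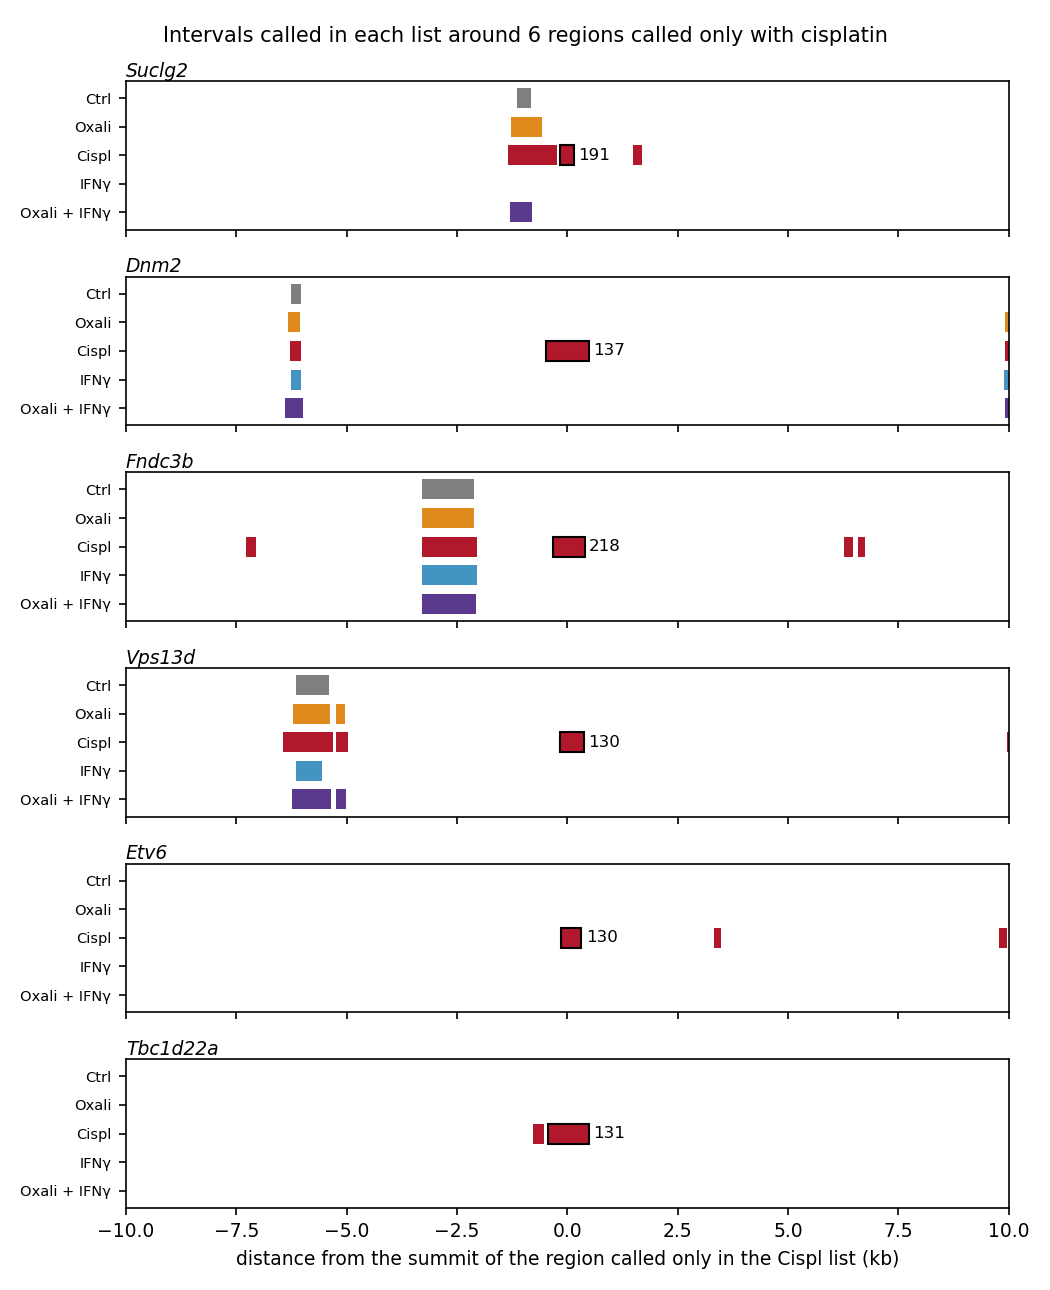
Intervals of the 5 lists within 10 kb of the summits of 6 members, by distance in kb. Bars are called intervals, the outlined bar is the member, and the number beside it is its pileup. In Etv6 and Tbc1d22a no other list had an interval in the window, whereas in Fndc3b all 5 lists shared a neighbour.

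A background over 10 times the genome level was met in 91 members. Without these 91, the shares of members at start sites, between genes, with AP-1, with CTCF and in genes with a start site called in all 5 lists, and the share of genes with a member, stayed within their intervals. The other shares below were not recomputed without them. What set this high background was not tested.

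Most of the 19225 regions were weak. Their median pileup was 40 (quartiles 33 and 51) and their median fold 2.39, against 104 and 4.88 in Cispl regions shared with another list. Their median width was 182 bp, close to the narrowest interval of 150 bp, against 513 bp in shared regions. These values helped to select the regions and are given as a description.

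The share of Cispl regions called nowhere else fell with strength. It was 47.3% at −log10 p from 2.99 to 4, 18.2% from 10 to 15 and 1.03% from 30 to 50. From 50 upwards it was 0.0564%, or 36 of 63827 regions. The Cispl list ends at −log10 p 2.99 and the others at 2.00, so the members had to pass a stricter limit than a call elsewhere. Scaled to the depth of each other list, the summits of all 19225 would reach −log10 p 2 there. From 24.4% (IFNγ) to 32.0% (Oxali + IFNγ) would have at least 2 times the lowest pileup called over that list's genome background. The background was at the genome level in 63.8% of members. Over a higher local background a call needs a higher pileup, which these shares leave out. Caller and counting noise in the other lists were not modelled, and a call also needs a minimum width.

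**Figure D2:**
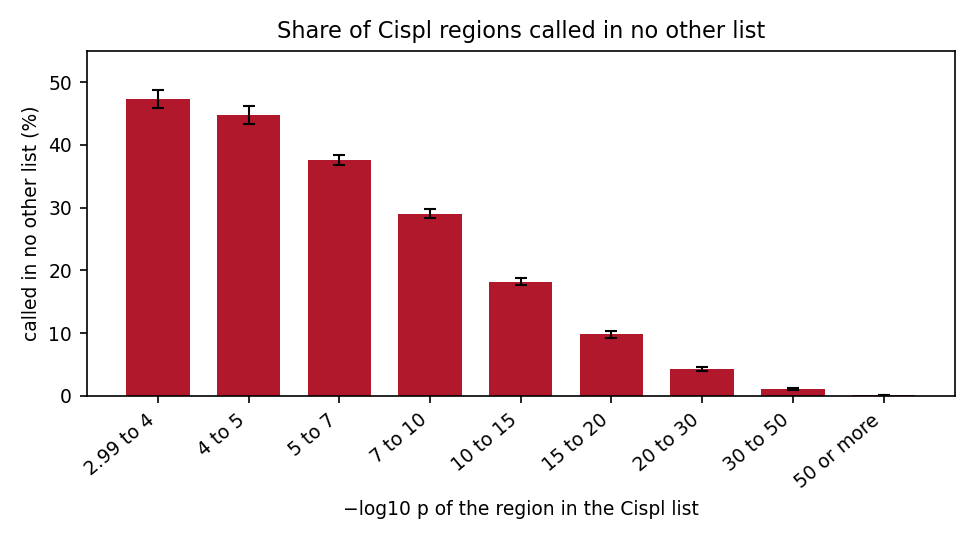
Share (%) of Cispl regions called in no other list, in classes of −log10 p in the Cispl list. Bars start at 0 and error bars are 95% Wilson intervals. The share falls from 47.3% in the weakest class to 0.0564% in the strongest.

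The members lay close to other accessible sites. The median distance to the nearest region of another list was 1118 bp, and 39.0% had one within 500 bp (38.3 to 39.7). For regions called only with IFNγ the median was 987 bp and the share 40.3%. Regions called only in Ctrl (1254 bp, 34.3%), only with Oxali (1298 bp, 35.3%) and only with Oxali + IFNγ (1877 bp, 29.8%) were farther away. Among members, 359 stood over 50 kb from any other list, and their median pileup was 43. At the limit of the rule, members by Cd2ap, Ticam2 and Col28a1 touched a region of another list without overlap, with pileups of 29, 52 and 35. Regions by Rps6kc1, Abcg8 and Chrm1, with pileups of 35, 35 and 45, were left out for an overlap of 1 bp. The weakest members, in Rp1, Prdm14 and Fam135a, each had a pileup of 26 and a −log10 p of 2.99.

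Introns held 51.1% of the members (50.4 to 51.9), against 38.2% of shared Cispl regions (37.9 to 38.4) and 39.8% of regions called only with Oxali + IFNγ (39.1 to 40.6). Start sites, taken as 1 kb on either side of an annotated transcript start, held 11.0%, against 18.5% of shared Cispl regions and 11.9% of Cispl regions with 1 other list. Within each class of strength below −log10 p 30 the intervals of the start-site share overlapped between members and shared regions, with members from 10.1% to 14.7% and shared regions from 9.46% to 12.5%. From 30 to 50 the share was higher in members, at 22.2% (16.5 to 29.0) against 13.1% (12.6 to 13.6), and above 50 it was lower, at 11.1% (4.41 to 25.3) against 27.2% (26.8 to 27.5). With 2.5 kb on either side, start sites held 21.0% of members. In Cispl regions with 1 other list, introns held 45.0% (44.2 to 45.9). Exons held 6.73% and the space between genes 31.1%. The share between genes was below that of shared regions in each class of strength, from 34.6% against 42.2% in the weakest to 2.78% against 31.5% in the strongest. The intron share was higher than in the regions called only with Oxali (42.0%), only with IFNγ (39.1%) or only in Ctrl (43.6%). With 1 list per group, these differences were not tested.

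Many of the host genes had a promoter that was called in every condition. Of the 17111 members away from start sites, 51.1% (50.3 to 51.8) lay in the body of a protein-coding gene whose start site was called in all 5 lists. Such genes cover 22.0% of the genome. The share was 38.0% in shared Cispl regions (37.7 to 38.3), 39.8% in Cispl regions with 1 other list, 43.9% in regions called only in Ctrl, 36.5% only with IFNγ, 27.6% only with Oxali and 23.4% only with Oxali + IFNγ (22.8 to 24.1). The cisplatin-only and the combination-only sets, which are of similar size, thus lay far apart on this measure.

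The share rose with strength, as did the share of members in any gene body (59.7% of all and 96.9% of the strongest). It went from 46.1% of the weakest members to 62.6% at −log10 p from 20 to 30 and 76.2% from 30 to 50 (68.1 to 82.7, n = 130). Of the 32 strongest members away from start sites, 30 lay in such a gene (93.8%, 79.9 to 98.3). In shared Cispl regions the share moved from 31.1% to 41.0% over the same classes. Among regions inside a gene body alone, the share in such genes was 85.6% of members (84.9 to 86.3) and 76.6% of shared regions (76.3 to 76.9). Regions called only in Ctrl came close to members, at 82.4% (80.4 to 84.3), as did regions of all 5 lists (80.3%). The share was 77.9% only with IFNγ, 62.6% only with Oxali and 54.9% only with Oxali + IFNγ. By strength it went from 83.7% to 96.8% in members and from 67.6% to 81.0% in shared regions. Suclg2, Dnm2, Fndc3b, Vps13d, Etv6, Tbc1d22a, Nup93, Tbc1d32, Taf2 and Patj all had a start site called in all 5 lists.

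**Figure D3:**
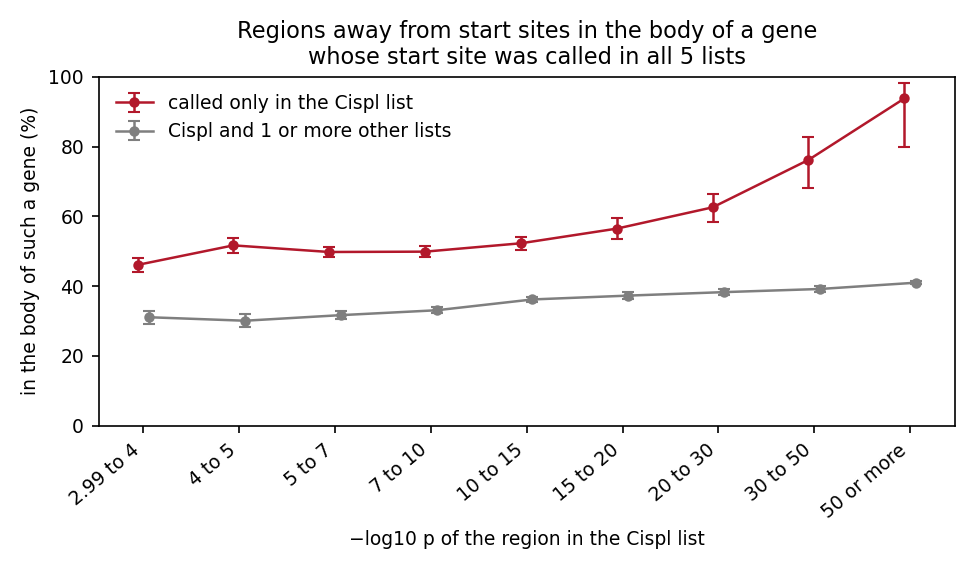
Share (%) of Cispl regions away from start sites that lay in the body of a gene whose start site was called in all 5 lists, by −log10 p. Points are members (red) and shared regions (grey) with 95% Wilson intervals. Members run from 46.1% to 93.8% and shared regions from 31.1% to 41.0%.

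Along genes of at least 20 kb the members were spread evenly. Each of 10 equal parts, from start to end, held between 9.00% and 10.8% of the 10349 members that fell in 1 such gene. Of the 1199 members with a −log10 p of at least 15, the second part held 12.8% (11.1 to 14.9) and the last part 6.92% (5.62 to 8.50). In shared regions of that strength the first part held most, at 14.5%.

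A member lay in the body or within 5 kb of 7481 of 21938 protein-coding genes, or 34.1% (33.5 to 34.7). This share depends on the window and the lists, and was 66.9% with 50 kb on either side and 13.7% with the 100000 strongest intervals of each list. Long genes had one more often, from 11.8% in the shortest of 4 equal classes to 64.1% in the longest. Within the longest class, 75.3% of genes with a start site called in all 5 lists had a member, against 41.3% of the other genes.

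Several long genes held many. In Lpp, which encodes an adhesion protein of the zyxin family (chr16:24393507-24992578), 36 of 116 Cispl regions were members (31.0%), with pileups from 27 to 293 and a median of 36.5. The same span held 69 regions in Ctrl, 71 in Oxali, 68 in IFNγ and 71 in Oxali + IFNγ. Of these, 0 were called only with Oxali + IFNγ, although that list is the longer one, with 166929 merged regions. Lpp was chosen for its number of members, so its higher Cispl count is a description.

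Thsd4, an extracellular matrix gene, had 91 Cispl regions, of which 28 were members, against 48 (IFNγ) to 56 (Ctrl and Oxali + IFNγ) regions in other lists. Fndc3b had 66 Cispl regions with 20 members, against 38 (Oxali) to 43 (Ctrl). Magi1, a scaffold protein of cell junctions, had 75 with 20 members, against 36 (IFNγ) to 52 (Oxali + IFNγ). These genes too were chosen for their number of members, and a Cispl count above the others follows in part from that choice.

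Pde4d, a cyclic AMP phosphodiesterase, had 27 members among 139 Cispl regions and between 82 and 108 regions in other lists. Prkce, protein kinase C epsilon, had 18 among 82, with 55 to 63 elsewhere. Zbtb20, a zinc finger repressor, differed, with 25 members among 107 Cispl regions but also 15 regions called only in Ctrl, which had 92. The remaining 3 of the 10 genes with most members, Fgfr2 (63), Gm20388 (62) and Gm37240 (26), are annotated over 2961, 4435 and 1391 kb and take in other genes.

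**Figure D4:**
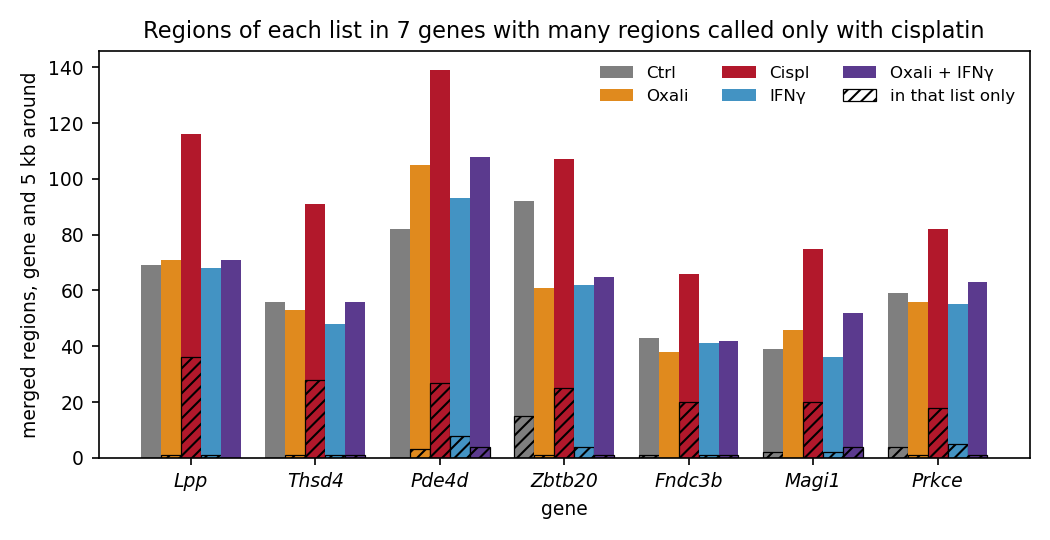
Number of merged regions of each list in 7 genes and 5 kb around them. Bars are the 5 lists and the hatched part is the regions called in that list only. In Lpp the Cispl list had 116 regions, 36 of them its own, and the other lists 68 to 71.

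Small loci could be just as dense. Cdo1, cysteine dioxygenase, had 9 Cispl regions of which 8 were members with a median pileup of 48.5, while each of the other 4 lists had 1 region there. Prlh, prolactin releasing hormone, had 4 members among 6 Cispl regions and 2 regions in each other list. Both were picked after their values were seen. By window of 1 Mb, the most members lay at 24 to 25 Mb of chromosome 16 (42, Lpp), 32 to 33 Mb of chromosome 2 (35, led by Prrc2b and Nup214) and 27 to 28 Mb of chromosome 3 (35, led by Fndc3b). Of 2737 such windows, 2121 held at least 1.

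At start sites the strongest members were in Zdhhc7, Dzip1, Mib1, Nup214 and Wfikkn1. The region of Dzip1, a ciliary zinc finger gene (chr14:118900046-118900260), had a pileup of 178 over 45.1 and lay 51 bp from an annotated start. Nup214, a nuclear pore protein, had one at chr2:32033261-32033819 with a pileup of 95 over 13.8. Zdhhc7, a palmitoyltransferase (chr8:120100457-120100616), had a pileup of 298 over 107 only 71 bp from a region of another list. Mib1, a ubiquitin ligase of Notch ligands, reached 99 over 13.8, and Wfikkn1, a protease inhibitor, 279 over 105.

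Members lay at a start site of 1459 protein-coding genes, and for 146 of these no start site of the gene was called in another list. The strongest of the 146 was Mettl21c, a lysine methyltransferase of muscle (chr1:44020363-44020572), with a pileup of 73 over 13.8. Pcdha4, a protocadherin, had 57 over 13.8 and Chl1, a neural adhesion molecule (chr6:103697467-103697656), 55 over 13.8.

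Of 31 genes of crosslink and excision repair, 16 had a member in the body or within 5 kb. Ercc6, which starts repair at stalled RNA polymerase, had 5 among 18 Cispl regions. Rev3l, the catalytic subunit of the translesion polymerase zeta, held the strongest, in an intron at chr10:39757282-39757616 with a pileup of 56 over 13.8. That member was 121 bp from a region of another list. Others with a member were Rev1, Xpa, Ercc3, Ercc4, Ercc5, Ddb1, Brca1, Brca2, Rad51c, Slx4, Fanca, Fancc, Fancd2 and Fancl. The share was 51.6% (34.8 to 68.0), against 34.1% of all genes, and the median length of these genes was 34653 bp against 17425 bp.

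Of 16 damage checkpoint genes, 10 had a member (62.5%, 38.6 to 81.5), against 34.1% of all genes. Rad50, of the complex that senses double-strand breaks, held the strongest, with a pileup of 61 over 13.8 in an intron. In Topbp1, an activator of ATR, 5 of 9 Cispl regions were members. Atm and Atr, the kinases at the head of the response, had 1 each, with pileups of 43 and, over a background of 55.5, 105.

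Genes that carry or bind platinum and metals had a member in 10 of 19 cases (52.6%, 31.7 to 72.7). This interval spans the 34.1% of all genes. The strongest lay outside the body of Mt1, a metallothionein, at chr8:94182630-94182822. It had a pileup of 299 over 164 (fold 1.81) and was 117 bp from a region of another list. Lrrc8d, a subunit of the volume-regulated anion channel through which cisplatin can enter cells, had the most, 7 of 23 Cispl regions, the highest with a pileup of 74 over 20.1. Atp7a, a copper exporter, had 3 of 10 and Abcc2, a conjugate exporter, 4 of 12.

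Of 21 p53 targets, 9 had a member (42.9%, 24.5 to 63.5), an interval that spans the 34.1% of all genes. The strongest was at Gadd45a, a growth arrest gene, with a pileup of 241 over 131, 101 bp from a region of another list. Sesn1 and Ppm1d, which restrain growth signalling and the checkpoint, and Pmaip1, which encodes the death protein Noxa, had 3 each. NF-κB signalling genes had one in 10 of 18 cases (55.6%, 33.7 to 75.4), which also spans 34.1%. Nfkb1, a subunit of the factor, had 6 among 20 Cispl regions, and a member beside Tnfaip3, a feedback inhibitor of the pathway, had a pileup of 180 over 89.0.

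The remaining gene lists had shares from 22.2% to 50%, against 34.1% of all genes. Interferon signalling had 7 of 19, led by Jak1 (65 over 15.6) and, in number, Irf2 with 4. Class I antigen presentation had 4 of 17, B2m, Sec22b, Nlrc5 and Erap1. The start-site region of Erap1, a peptide-trimming protease, was the strongest at 262 over 96.6, 174 bp from a region of another list. AP-1 and stress kinases had 4 of 18, with 7 members at Map3k5 and the strongest at Map2k4 (63 over 13.8). Oxidative stress genes had 4 of 13, with the strongest at Slc7a11, the cystine transporter (39 over 13.8), and 2 at Nqo1.

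Endoplasmic reticulum stress genes had 6 of 12, led by Atf6 (64 over 13.8), with 5 members at Ern1. Histone acetyltransferases and deacetylases had 10 of 20, among them Hdac4 with 11 members in 41 Cispl regions, the highest at 62 over 13.8. Of these 11 gene lists, the interval lay above 34.1% for damage checkpoint genes and for crosslink and excision repair genes and spanned it for the other 9. Gene length was not accounted for. The median length of the damage checkpoint genes was 35817 bp, and in the third of the 4 length classes, with a median of 27328 bp, 38.8% of all genes had a member, a share inside the intervals of both lists.

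The sequence of the members also differed from the rest of the Cispl list. A match to the AP-1 consensus TGANTCA within 100 bp of the summit was found in 10.3% (9.90 to 10.8), against 21.5% of shared Cispl regions (21.3 to 21.7) and 20.3% of regions called only with Oxali + IFNγ (19.7 to 20.9). AP-1 factors, pairs of Fos and Jun proteins, bind many enhancers. The same letters reversed, a control for base composition, were found in 6.21%, 6.75% and 7.23%. Regions called only in Ctrl held AP-1 in 8.52% and those only with Oxali in 21.4%.

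The lower AP-1 share of members held in each of 3 classes of GC content (11.8% against 24.8%, 11.2% against 24.8% and 7.86% against 16.7%). It also held in each class of strength, from 8.07% against 17.8% in the weakest to 7.19% against 22.2% at −log10 p from 30 to 50. Of the 36 strongest members 0 had a match, against 22.1% in shared regions. This allows a share of up to 8.33%, taken as 3 of 36 and not as a Wilson limit. The strongest member with a match, outside very high background, lay in an intron of Htt, the huntingtin gene, and is shown with the 201 bases searched and the site in capitals.
Htt, chr5:34762984-34763184: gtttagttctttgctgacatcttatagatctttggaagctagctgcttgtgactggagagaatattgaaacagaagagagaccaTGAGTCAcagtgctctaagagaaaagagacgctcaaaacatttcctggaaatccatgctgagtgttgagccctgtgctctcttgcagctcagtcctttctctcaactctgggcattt

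This member had a pileup of 257 over 87.3 and lay 194 bp from a region of another list. The CTCF motif, bound by the insulator protein at loop anchors, was met in 1.26% of members (1.11 to 1.43) and 4.78% of shared regions (4.67 to 4.89). The share of members was 1.90% at q of at most 1e-05, 1.93% with no other list within 500 bp and 2.82% with the 100000 strongest intervals of each list. Unlike for AP-1, the difference depended on strength. At −log10 p from 10 to 15 the shares were 2.28% and 2.01%, from 20 to 30 they were 1.82% and 3.94%, and from 30 to 50 they were 0.599% and 4.76%. Of the 36 strongest members 0 had a match, against 7.43% in shared regions. This allows a share of up to 8.33%, again taken as 3 of 36. In regions called only with Oxali + IFNγ it was 0.618%. A CTCF match is shown, in capitals, from the strongest member that held one.
Eri1, chr8:35498955-35499155: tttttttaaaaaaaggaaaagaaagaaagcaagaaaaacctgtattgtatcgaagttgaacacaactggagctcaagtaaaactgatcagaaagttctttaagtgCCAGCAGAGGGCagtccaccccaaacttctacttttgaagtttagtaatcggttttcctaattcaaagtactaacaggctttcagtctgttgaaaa

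The member nearest Eri1 had a pileup of 206 over 79.5.

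The p53 half-site was found in 7.51% of members (7.15 to 7.89), 6.68% of shared regions and 7.53% of regions called only with Oxali + IFNγ, and its reversed form in at most 2.15% of each. Outside very high background, the strongest member with one was intronic in Srbd1, with a pileup of 97 over 13.8.
Srbd1, chr17:86108664-86108864: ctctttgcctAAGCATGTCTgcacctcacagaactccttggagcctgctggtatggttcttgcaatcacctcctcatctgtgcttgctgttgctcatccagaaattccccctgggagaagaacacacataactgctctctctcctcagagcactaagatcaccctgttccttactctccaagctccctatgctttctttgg

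Motifs of interferon and NF-κB signalling were read beside their reversed letters. The IRF core GAAANNGAA was found in 5.37% of members and 8.64% of regions called only with Oxali + IFNγ, and its reversed form in 5.45% and 7.75%. The NF-κB core GGANTTTCC was found in 0.614% and 1.32%, and its reversed form in 0.785% and 1.11%. The reversed forms thus differed between the sets in the same direction. The STAT site TTCNNNGAA went the other way, with 6.74% of members and 5.77% of the combination-only regions, against 5.73% and 5.86% for its reversed form. Members held the TEAD site GGAATG in 11.9% and the RUNX site TGTGGT in 21.6%. The NRF2 site TGACNNNGC was found in 8.79% of them, the GATA site AGATAA in 7.01% and the forkhead site TGTTTAC in 3.54%. Their reversed forms, in the same order, were found in 6.22%, 16.9%, 2.43%, 7.85% and 3.82%. Shared Cispl regions held the sites themselves, again in that order, in 13.6%, 23.0%, 10.6%, 6.31% and 4.41%. Of these sites only GATA was thus more frequent in members than in shared regions. The GC box GGGCGG was found in 3.87% of members and 10.3% of shared regions, but its reversed form differed nearly as much (4% and 9.87%). In members the E-box CACGTG (3.25%), the ETS site CCGGAAGT (0.192%) and the CRE TGACGTCA (0.218%) lay below their reversed forms (6.24%, 0.978% and 0.801%). In shared regions these sites were found in 4.01%, 0.802% and 0.530%.

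**Figure D5:**
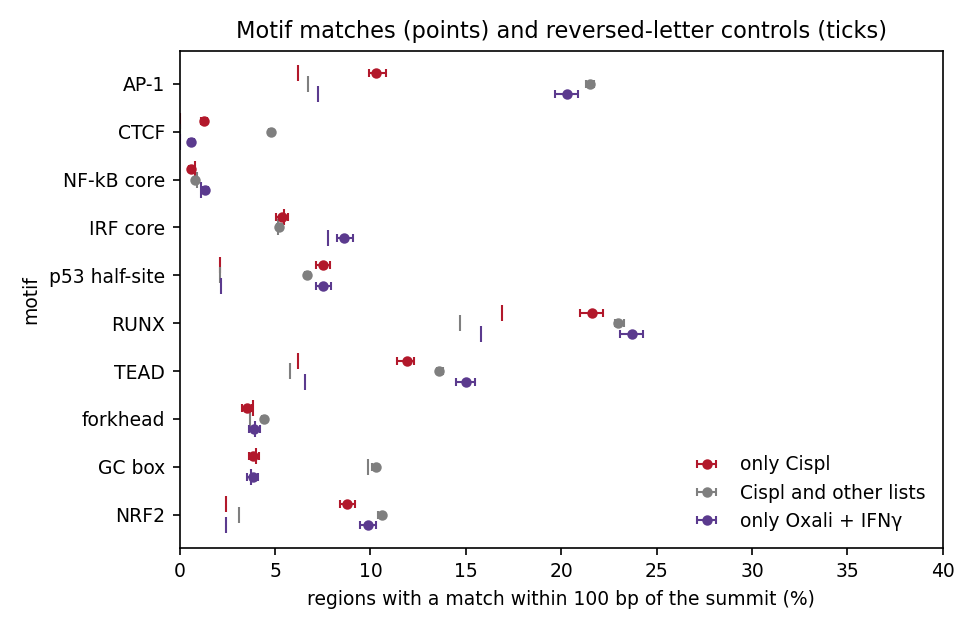
Share (%) of regions with a match to each of 10 motifs within 100 bp of the summit, with 95% Wilson intervals. Points are the matches in members (red), shared Cispl regions (grey) and regions called only with Oxali + IFNγ (violet), and ticks are the reversed letters. AP-1 stands at 10.3% in members against 21.5% and 20.3%.

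Median GC content differed little, and CpG-rich windows differed more. The median GC content within 100 bp of the summit was 48.3% in members and 49.3% in shared regions. At least 10 CpG dinucleotides were found in 0.557% of members and 8.16% of shared regions. Regions called only with Oxali + IFNγ (0.762%) or only with Oxali (0.991%) were also low. The share was 4.03% only with IFNγ and 5.49% only in Ctrl. More than 50% of the window was repeat in 19.2% of members and 15.9% of shared regions. In regions called in 1 other list only, it was 15.8% with Oxali + IFNγ, 26.8% with Oxali, 26.2% with IFNγ and 32.7% in Ctrl. Neighbouring guanines on either strand (GG or CC), the bases cisplatin joins most readily, numbered 25.6 on average per window in members, 27.8 in shared regions and 25.8 in regions called only with Oxali + IFNγ.

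The chromosomes held similar shares of members, from 9.85% of Cispl regions on X (8.99 to 10.8) to 13.6% on chromosome 16 (12.8 to 14.5), and 1 of 51 on Y. As a check of the label, the start sites of Krt8 and Hoxb13 were called in every list, while that of Krt18 was called in Ctrl and Oxali, that of Epcam in IFNγ and that of Cdh1 in no list. Of 9 markers of basal, immune, endothelial and fibroblast cells, Krt14, Ptprc, Pecam1 and Col1a1 were called in the Cispl list, and from 2 to 4 were called in each list. The part of other cells in these results was not tested.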

How the data were processed

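ATAC-seq was measured in 10 libraries, 2 for each of 5 groups of Myc-CaP cells. Per the study's methods and the submitters' processing notes, the authors trimmed reads with cutadapt, aligned them to mm10 with Bowtie2 2.2.8, kept well-mapped reads with SAMtools and took out mitochondrial reads and duplicates. They then joined both libraries of a group and called peaks with MACS2 2.1.0, shifting reads to the transposase cut and using no control library. Peaks in blacklisted sequence were removed. Since pooling came before calling, the files hold 1 list per group and no list has replicates.

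The deposited fold is the ratio of pileup to background, 1 being added to both. The Poisson probability of the pileup is given by the authors as −log10 p-value and, corrected within the list, as −log10 q-value, and the deposited score is a rounded multiple of the −log10 p-value and was not used. Positions and summit offsets were used as the authors gave them. The Cispl list ends at −log10 p 2.99 with peak number 300000 and the other lists at 2.00, so weak Cispl regions were not analysed here. Reads per library were not analysed here. The lowest background of a list, proportional to its depth, was 13.8 with cisplatin, 12.1 in Ctrl, 11.3 with Oxali, 9.62 with IFNγ and 12.9 with Oxali + IFNγ.

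The whole-number pileup and the background behind each peak were solved from its fold and p (100% solved). Summits of 1 interval counted as 1 region, described by its strongest summit. Genes and places were taken from GENCODE M21 (GRCm38, which is mm10) and sequences from the GRCm38 genome of RefSeq. Both strands of the 100 bp on either side of a summit were searched for motifs. Those named without letters were searched as published consensus forms. Matches to NRF2 and AP-1, NRF2 and CRE, and STAT and ETS can share bases, so these shares are not independent. Intervals of shares are 95% Wilson intervals for counting error alone. Python 3.11.15 with numpy 2.4.6, pandas 2.3.3, scipy 1.17.1 and matplotlib 3.10.9 was used, and the functions were tested on simulated data.

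Members, gene lists and motifs were chosen with earlier results of these data known. The text names the 12 strongest members by q, the 5 strongest at start sites, the strongest member and the gene with most members of each gene list, the 10 genes and 3 windows with most members, the strongest member for motifs shown (none from chromosome 18, over an untranslated region or over 10 times the genome background), and the members at the limits of the rule. Further genes of the lists, and the measure on host genes with a start site called in all 5 lists, were chosen after the data were seen. Alternatives covered the strength limit, the length of the lists, the overlap that counts as shared, the depth and the windows. Some members, markers, a motif and a gene list that these rules name are not reported here.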

Additional observations from a re-analysis of the deposited data

How the results depend on the processing

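No paired analysis was possible because each group has 1 pooled list, and for the same reason no library could be left out. 8 results were recomputed, the number of members (19225), their shares at start sites (11.0%), between genes (31.1%), with AP-1 (10.3%) and with CTCF (1.26%), their median GC (48.3%), the share of genes with a member (34.1%) and the share away from start sites in genes with a start site called in all 5 lists (51.1%). Of 69 values under alternatives, 40 stayed within the main interval or, for the number of members, within 1.5 times, 29 moved, and no shift was tested. With q at most 1e-05 there were 10649 members, 29.8% between genes, 10.8% with AP-1, 1.90% with CTCF, GC 47.8%, 23.4% of genes and 52.7% in such genes. With the 100000 strongest intervals of each list there were 4889 members, 12.8% at start sites, 29.1% between genes, 11.8% with AP-1, 2.82% with CTCF, 13.7% of genes and 52.7% in such genes, and 992 of these 4889 were among the 19225 (20.3% and 5.16%). With no other list within 500 bp there were 11730 members, 8.67% at start sites, 30.3% between genes, 12.1% with AP-1, 1.93% with CTCF, 23.6% of genes and 53.2% in such genes. The share of genes alone moved with q at most 0.01 (33.0%), with every list ended at −log10 p 2.99 (34.8%), with under 50% of the interval covered elsewhere (36.7%) and with scaling to the Ctrl depth (33.2%). It was 27.2% for gene bodies alone and 66.9% with 50 kb. A start window of 2.5 kb gave 21.0%, and AP-1 within 50 bp 7.00%. Leaving out members over 10 times the background, and the share in genes called at the start in all 5 lists, were alternatives and results chosen after seeing the data. Values of shared regions were not recomputed under the alternatives. Depth limits the weakest calls, and the Cispl list has none below −log10 p 2.99.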
